A study of Homo sapiens with 6 samples.

Results

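The histone genes of the HIST clusters were examined in RNA-seq libraries of A549 cells with FOXD3 knocked down. Every gene symbol beginning with HIST in any of the 6 tables of gene levels was taken, which gave 55 of the 17789 symbols listed. By their symbols, 4 were assigned to linker histone H1, 14 to H2A, 15 to H2B, 12 to H3 and 10 to H4. Whether each of them encodes a protein was not checked, and pseudogenes were not set apart. By name, 40 belong to the HIST1 cluster on chromosome 6, 11 to HIST2 and 3 to HIST3, both on chromosome 1, and 1 to HIST4 on chromosome 12.

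A549 cells are an established line of human lung adenocarcinoma, a form of non-small-cell lung cancer, and are epithelial in origin. FOXD3 is a forkhead transcription factor. The knockdown group held 3 libraries of A549 cells transfected with a FoxD3 SMART pool, a mixture of siRNA duplexes, by means of a lipid reagent, and the control group held 3 libraries of A549 cells labelled wild type. The submitters looked at the loss of FOXD3 at 72 h. Their protocols give no treatment for the control cells and do not state whether the libraries of a group were separate cultures. The p-values below therefore measure only the spread between these libraries, which may be technical. Both groups were grown in the same serum-supplemented medium.

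Histone mRNAs of these clusters are made in S phase, when new DNA has to be packed into nucleosomes. Nucleosomes are built on H2A, H2B, H3 and H4, and H1 binds the linker DNA between them. Unlike almost all other mRNAs, most replication-dependent histone mRNAs end in a short stem-loop in place of a poly(A) tail. The stem-loop is bound by the protein SLBP, which guides 3′ end cutting and translation. Some of the same genes also give polyadenylated transcripts that run past the stem-loop, mostly in differentiated cells. The TruSeq RNA kit used for these libraries captures poly(A) RNA in its standard procedure, so values here need not measure the tailless histone mRNAs. How far tail selection set the levels was not tested.

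The stem-loop letters of 8 genes that passed the test between the groups are shown because they mark the end of the tailless transcript. HIST2H2BE and HIST2H4B also passed and had a match, which is not shown. HIST2H2AC and HIST1H2BJ passed too and had no match to the motif searched. The letters were read from GENCODE 29 transcripts, 5′ to 3′ on the transcript strand, with the 16-base core in capitals.
HIST1H2AC: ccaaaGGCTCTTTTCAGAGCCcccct
HIST1H2BC: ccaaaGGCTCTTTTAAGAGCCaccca
HIST3H2A: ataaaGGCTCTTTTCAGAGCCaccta
HIST1H2BN: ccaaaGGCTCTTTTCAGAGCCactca
HIST1H3E: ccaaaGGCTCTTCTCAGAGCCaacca
HIST1H3G: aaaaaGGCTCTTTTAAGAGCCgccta
HIST3H3: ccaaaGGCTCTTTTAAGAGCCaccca
HIST2H4A: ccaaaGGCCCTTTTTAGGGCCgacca

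The motif GGNNCTTNTNAGNNCC, searched on the transcript strand only, was found in transcripts of 29 of the 55 genes and in 221 of 83129 protein-coding transcripts, or 0.266%. The stem paired without a mismatch in 27 of the 29. The core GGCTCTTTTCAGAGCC was the commonest of 6 distinct cores, found in 14 genes. For 22 of the 29 genes an annotated transcript ran more than 100 bases past the stem-loop. That stretch was 1128 bases in HIST1H2AC, 116 in HIST1H2BC, 390 in HIST3H2A and 8 in HIST3H3. Such annotated extensions describe GENCODE models and not the transcripts of these libraries. No match says only that the letters were not in the annotated models.

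Levels were deposited as FPKM, a fragment level corrected for transcript length and for how many fragments were mapped, so levels of different genes can be set side by side per length. A symbol that a table did not list was set to 0 FPKM. Among the histone genes, 21 were listed in all 6 libraries and 7 in only 1 library. The knockdown libraries listed 36, 40 and 41 of the 55, and the control libraries 35, 38 and 39. All 55 together held between 0.0265% and 0.0326% of the FPKM total of a library. A few genes carried this sum: HIST1H2BK alone made up 32.9% of it, and HIST1H2BK, HIST1H2BD, HIST1H2AC, HIST3H2A, HIST1H1C, HIST2H2AA4 and HIST1H2BC together 78.0%.

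Depth behind these values is known only roughly, since the files hold no counts. FPKM values between 0.3 and 0.5 were taken on histone loci of 430 to 500 bp, a window chosen after values had been seen. Their medians were 0.382, 0.408 and 0.358 FPKM in knockdown libraries and 0.46, 0.435 and 0.423 FPKM in control libraries. Each rests on 5 to 9 values and cannot leave the window. The medians did not overlap between the groups, so for genes near 1 fragment depth and group cannot be told apart. Read as the value of 1 fragment, the medians put HIST3H2A at about 22.3, 29.2 and 19 fragments in the knockdown libraries and 34, 55.6 and 51.1 in the control libraries. A histone gene near 0.4 FPKM thus rests on about 1 fragment, and differences between such genes were not resolvable at this depth. The libraries listed 15651 to 15754 symbols in the knockdown group and 16229 to 16288 in the control group. FOXD3 itself was near the limit of detection, at 0, 0.0749 and 0 FPKM in knockdown libraries and 0.152, 0.291 and 0.134 FPKM in control libraries. The groups did not overlap (two-sided exact permutation p = 0.1, the lowest value that 3 libraries against 3 can reach).

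All 6 epithelial markers stood at 5 FPKM or more, summing to 8754 to 8832 FPKM in knockdown libraries and 6743 to 7707 in control libraries. Of 7 leukocyte markers 6 were under 1 FPKM, with sums of 1.56 to 2.18 in knockdown libraries and 2.86 to 4.45 in control libraries. Of 6 fibroblast markers 2 were not listed and 3 were under 1 FPKM, with sums of 2.96 to 3.58 in knockdown libraries and 3.61 to 4.56 in control libraries. Of 6 endothelial markers 5 were under 1 FPKM, with sums of 1.90 to 2.18 in knockdown libraries and 2.67 to 3.51 in control libraries. Small nucleolar RNAs took 4.83% of the FPKM total in knockdown replicate 2, against 0.975% to 1.92% in the other libraries. The part of these differences in the histone results was not tested.

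In FOXD3 knockdown the histone genes changed in both directions, with as many called higher as lower. Across the whole table, limma on log2(FPKM + 1) with Benjamini-Hochberg adjustment called 63.5% of 13340 symbols at an adjusted p under 0.05, with 25.6% higher and 37.9% lower in knockdown. Of the 55 histone genes, 31 reached the mean of 0.5 FPKM needed for this test, and 12 of them passed it, 6 higher and 6 lower. The 6 higher include HIST2H4A and HIST2H4B, whose values were identical in every library. That is 38.7% of those tested, under the share of all symbols called. No test was made of that gap. Among the 7 histone genes left by a filter at 5 FPKM, 1 was called higher and 2 lower, beside 68.3% of 9170 symbols called. The histone genes are mostly short and low, where fewer fragments stand behind a value. What part this had in the gap was not tested. Some of the 31, among them the called HIST1H2BN, HIST1H3G and HIST2H2AC, reached the minimum only through the group in which they were high, so the count does not speak for all 55.

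These libraries are bulk RNA, in which a change in the share of cells in S phase and a change in histone RNA per cell cannot be told apart. The median difference of the 31, on the log2(FPKM + 1) scale, was 0.08, beside -0.09 for all symbols tested. Over all 55 genes the knockdown mean was the higher in 28 and the lower in 27. The groups did not overlap in 12 of the 31 (38.7%), beside 69.1% of all symbols tested. The counts changed when a library was left out: 3 genes were called higher without knockdown replicate 2 and 3 without knockdown replicate 3, in place of 6. Both times the copies HIST2H4A and HIST2H4B lost their call. HIST2H2AC was untested without knockdown replicate 2, and HIST1H3G without knockdown replicate 3. Of all symbols tested, 56.2% and 56.8% were called in these settings, against 63.5%. Those called lower numbered 4 or 5 when any 1 library was left out. Quantile normalization, which gives every library the same distribution, called 10 higher and 5 lower. The split of all symbols moved as well, with 4304 higher and 3909 lower under quantile normalization and 4140 higher and 4304 lower under median scaling, against 3417 and 5050.

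**Figure D1:**
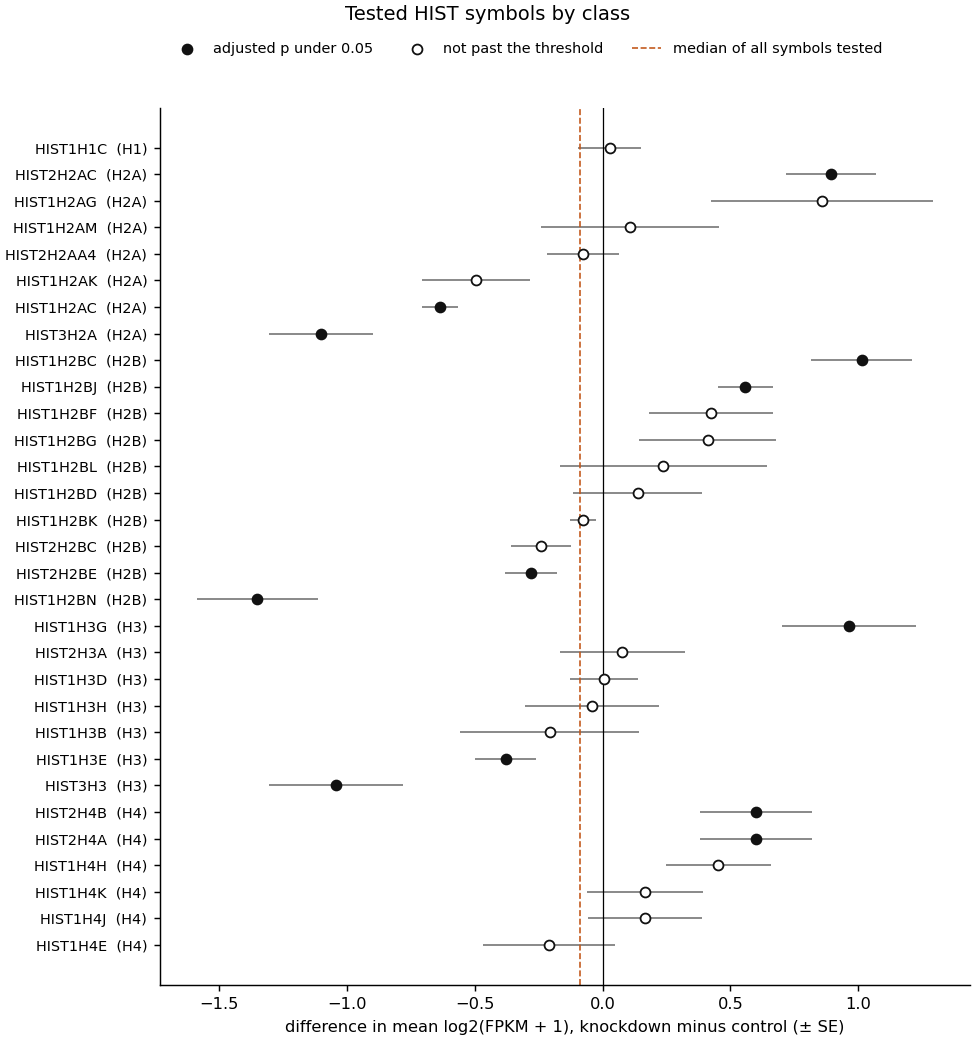
Difference between knockdown and control on the log2(FPKM + 1) scale for the 31 histone genes tested, with 1 SE from limma and the histone classes apart. Filled points passed the adjusted threshold and the dashed line is the median of all symbols tested; 6 filled points lie above 0 and 6 below.

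H1 was represented by HIST1H1C, the gene of a widely expressed linker histone. HIST1H1C (hg19, chr6:26055968-26056699) stood at 9.79, 12.9 and 14.4 FPKM in knockdown libraries and 11.4, 12.1 and 12.5 FPKM in control libraries. The control values lay inside the knockdown range, and the difference of 0.03 ± 0.12 (SE) did not pass limma's test (adjusted p = 0.862). The other H1 genes were HIST1H1B, HIST1H1E and HIST1H1T, the last known from testis. Each was listed in at most 3 libraries and none passed 0.381 FPKM in any.

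H2A was lower in sum in knockdown. Its 14 genes summed to 36.9, 46.7 and 36.5 FPKM in knockdown libraries and 52.8, 66.0 and 57.4 FPKM in control libraries. The groups did not overlap, and the knockdown mean was 0.682 of the control mean (40.0 ± 5.81 against 58.7 ± 6.70 FPKM, SD, n = 3 each). HIST1H2AC and HIST3H2A accounted for this gap: without them the class summed to 14.7, 19.1 and 14.7 FPKM in knockdown libraries and 14.6, 18.8 and 10.5 FPKM in control libraries. What remained overlapped between the groups.

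HIST1H2AC, a core H2A gene of the HIST1 cluster (chr6:26124373-26124918), stood at 13.7, 15.7 and 15.0 FPKM in knockdown libraries and 22.5, 23.0 and 25.3 FPKM in control libraries. Every knockdown library was below every control library and values within a group were close. It fell by 0.64 ± 0.07 (SE) on the log2(FPKM + 1) scale, to 0.628 of the control mean (limma adjusted p = 0.000109). HIST3H2A, the H2A gene of the small HIST3 cluster (chr1:228645065-228645560), stood at 8.51, 11.9 and 6.79 FPKM in knockdown libraries and 15.6, 24.2 and 21.6 FPKM in control libraries. The groups were again apart, with a wider spread inside each. It fell by 1.10 ± 0.20 (SE), to 0.443 of the control mean (limma adjusted p = 0.00166).

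HIST2H2AC ran the other way, though close to 1 fragment. This H2A gene of the HIST2 cluster (chr1:149858525-149858961) stood at 0.819, 1.32 and 1.18 FPKM in knockdown libraries and was listed in 1 control library, at 0.439 FPKM. Its limma difference was 0.89 ± 0.18 (SE) (adjusted p = 0.00251), on an estimated 2.14, 3.24 and 3.31 fragments in knockdown libraries and 0, 1.01 and 0 in control libraries. The other 2 control values are not listed and were set to 0, and the gene reached the minimum of 0.5 FPKM only through the knockdown group, so a difference was built into its selection. HIST2H2AA4, summed over its 2 loci on chromosome 1, stood at 11.7, 10.6 and 8.59 FPKM in knockdown libraries and 10.6, 13.2 and 9.07 FPKM in control libraries. These ranges overlapped, and the difference of -0.08 ± 0.14 (SE) did not pass (limma adjusted p = 0.658). HIST1H2AG had the largest difference among the 19 genes that did not pass, 0.86 ± 0.43 (SE), with 0.652, 4.20 and 1.83 FPKM in knockdown libraries and 0.702, 1.39 and 0 FPKM in control libraries (limma adjusted p = 0.116). Its groups overlapped, and 1 knockdown library held most of the gap.

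**Figure D2:**
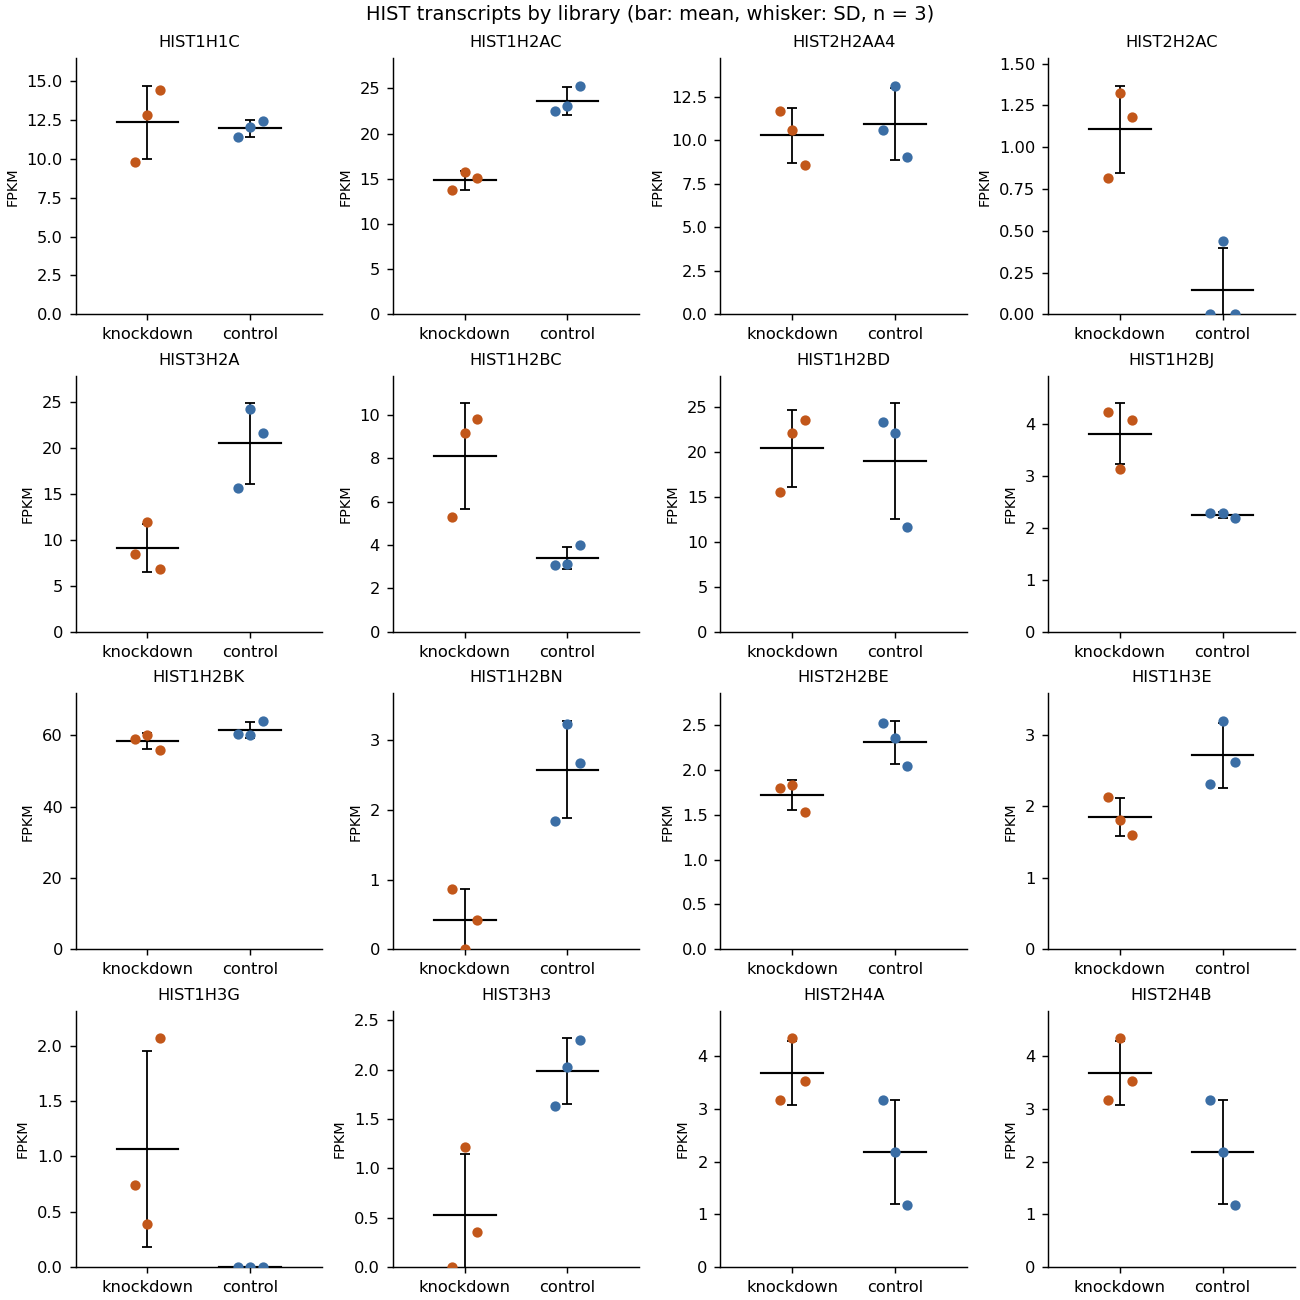
FPKM of 16 histone genes in each library, with knockdown libraries at the left of each panel and control libraries at the right; points are libraries, bars are means and whiskers are SD (n = 3). HIST1H2AC and HIST3H2A lie lower and HIST1H2BC and HIST1H2BJ higher in every knockdown library, while HIST1H2BK, HIST1H2BD and HIST1H1C overlap.

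H2B was the most abundant class, and its sum overlapped between the groups. The 15 genes summed to 99.6 ± 5.87 FPKM in knockdown libraries and 97.2 ± 2.87 FPKM in control libraries (SD, n = 3 each), a ratio of 1.03. HIST1H2BK and HIST1H2BD, which set this sum, both have long annotated loci (8566 and 13228 bp). HIST1H2BK (chr6:27106072-27114637) stood at 59.0, 60.1 and 55.8 FPKM in knockdown libraries and 60.5, 60.0 and 64.1 FPKM in control libraries. The difference of -0.08 ± 0.05 (SE) did not pass limma's test (adjusted p = 0.203), except under quantile normalization (-0.16, adjusted p = 0.0219). The locus of HIST1H2BK overlaps that of HIST1H4I, and the strand setting is not given in the sources used here.

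HIST1H2BD (chr6:26158349-26171576) stood at 15.6, 22.2 and 23.6 FPKM in knockdown libraries and 23.4, 22.1 and 11.6 FPKM in control libraries. The groups overlapped, with the lowest value in a control library, and the difference of 0.14 ± 0.25 (SE) did not pass (limma adjusted p = 0.655). Without HIST1H2BK and HIST1H2BD, the other 13 H2B genes summed to 18.3, 20.4 and 23.9 FPKM in knockdown libraries and 15.7, 15.9 and 18.2 FPKM in control libraries. Those sums did not overlap, with a ratio of 1.26, and the subset was chosen after the values were seen.

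Among the less abundant H2B genes, 2 rose and 2 fell. HIST1H2BC (chr6:26123695-26124132) stood at 5.28, 9.16 and 9.81 FPKM in knockdown libraries and 3.09, 3.10 and 3.99 FPKM in control libraries. Every knockdown library was above every control library, and the knockdown mean was 2.38 times the control mean. It rose by 1.02 ± 0.20 (SE) on the log2(FPKM + 1) scale (limma adjusted p = 0.00232), on an estimated 13.8, 22.4 and 27.4 fragments in knockdown libraries and 6.72, 7.13 and 9.43 in control libraries. HIST1H2BJ (chr6:27100095-27100575) stood at 4.22, 3.14 and 4.08 FPKM in knockdown libraries and 2.29, 2.28 and 2.19 FPKM in control libraries. It too was higher in 3 of 3 knockdown libraries, by 0.56 ± 0.11 (SE) (limma adjusted p = 0.00219).

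HIST1H2BN (chr6:27806440-27806888) stood at 0.867, 0 and 0.417 FPKM in knockdown libraries and 1.83, 3.23 and 2.67 FPKM in control libraries. Its limma difference was -1.35 ± 0.24 (SE) (adjusted p = 0.00131), on at most about 2.27 fragments in a knockdown library and 3.99 to 7.42 in control libraries. The knockdown mean was under 0.5 FPKM, so it reached the minimum through the control group. HIST2H2BE, an H2B gene with a known long polyadenylated transcript (chr1:149856010-149858232), stood at 1.80, 1.83 and 1.53 FPKM in knockdown libraries and 2.52, 2.36 and 2.04 FPKM in control libraries. Its groups did not overlap and it fell by 0.28 ± 0.10 (SE) (limma adjusted p = 0.0397). That call was lost under median scaling (adjusted p = 0.0903) and under quantile normalization (0.997, with a difference of 0.00049). It was also lost with small RNAs left out of the totals (0.0637) and without knockdown replicate 1 (0.0708), 2 (0.0616) or 3 (0.128) or control replicate 1 (0.0994) or 2 (0.0911). The adjusted p over all 16 settings, the main one included, lay between 0.0182 and 0.997.

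H3 was low throughout, with no gene at a mean of 5 FPKM. Its 12 genes summed to 6.94 ± 2.04 FPKM in knockdown libraries and 8.29 ± 0.409 FPKM in control libraries (SD, n = 3 each). The ranges overlapped, and the difference of the log2 sums, -0.26, turned to 0.26 under quantile normalization. HIST3H3, known as a testis histone gene (chr1:228612546-228613026), stood at 0, 1.21 and 0.352 FPKM in knockdown libraries and 1.64, 2.02 and 2.30 FPKM in control libraries. It fell by 1.05 ± 0.26 (SE) (limma adjusted p = 0.00823), on up to about 2.98 fragments in knockdown libraries and 3.56 to 5.44 in control libraries. Both HIST3H3 and HIST3H2A belong to the HIST3 cluster, whose 3 genes summed to 8.95, 14.0 and 7.14 FPKM in knockdown libraries and 17.7, 26.7 and 23.9 FPKM in control libraries. The sums did not overlap, with a ratio of 0.441, while those of the HIST1 (ratio 0.985) and HIST2 (1.08) clusters overlapped. HIST3H2A made up most of the HIST3 sum, and without it HIST3H3 and HIST3H2BB summed to 0.442, 2.15 and 0.352 FPKM in knockdown libraries and 2.11, 2.5 and 2.3 FPKM in control libraries, which overlapped. Whether the clusters differ was not tested.

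HIST1H3G, a core H3 gene (chr6:26271146-26271612), stood at 0.742, 0.387 and 2.07 FPKM in knockdown libraries and was not listed in any control library. With the control libraries set to 0 no fold is given. Its limma difference was 0.96 ± 0.26 (SE) on the log2(FPKM + 1) scale (adjusted p = 0.0121), on an estimated 1.94, 0.949 and 5.79 fragments in the knockdown libraries. It reached the minimum of 0.5 FPKM only through the knockdown group, so a difference was built into its selection and the p-value supports nothing further. HIST1H3E, another core H3 gene (chr6:26225383-26225844), stood at 2.13, 1.80 and 1.60 FPKM in knockdown libraries and 2.31, 3.20 and 2.62 FPKM in control libraries. In FPKM the groups did not overlap. The estimated fragments were 5.58, 4.42 and 4.48 in knockdown libraries and 5.03, 7.35 and 6.2 in control libraries, and these overlapped. HIST1H3E fell by 0.38 ± 0.12 (SE) (limma adjusted p = 0.0240). That call was lost under quantile normalization (0.453) and without knockdown replicate 2 (0.0625) or 3 (0.0824) or control replicate 2 (0.0777) or 3 (0.0503), and the adjusted p over all 16 settings lay between 0.0146 and 0.453. The other 4 tested H3 genes, HIST1H3B, HIST1H3D, HIST1H3H and HIST2H3A, each had overlapping groups and means under 1 FPKM.

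H4 genes encode the histone with the most uniform sequence, since nearly all copies give the same protein. The 10 genes summed to 14.6, 17.6 and 17.8 FPKM in knockdown libraries and 12.8, 13.0 and 12 FPKM in control libraries. Every knockdown sum was above every control sum, and the means stood at 16.6 ± 1.80 and 12.6 ± 0.531 FPKM (SD, n = 3 each), a ratio of 1.32. HIST2H4A and HIST2H4B (chr1:149832330-149832725 and chr1:149804221-149804616) carried the same value in all 6 libraries, so reads of these near-identical copies could not be assigned to either, and they count as 1 measurement. Each stood at 3.17, 4.34 and 3.52 FPKM in knockdown libraries and 3.16, 2.19 and 1.18 FPKM in control libraries. The lowest knockdown value and the highest control value were nearly the same, and the pair rose by 0.60 ± 0.22 (SE) (limma adjusted p = 0.0402 for each). The call was lost with no filter (0.0857), without a trend in eBayes (0.0541), and without knockdown replicate 1 (0.0529), 2 (0.121) or 3 (0.0774) or control replicate 2 (0.0739) or 3 (0.0907). The adjusted p over all 16 settings lay between 0.0064 and 0.121.

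Counting the copies once, the H4 sum still did not overlap between the groups, with a ratio of 1.24. Without both copies it overlapped, with a ratio of 1.13. HIST1H4H stood at 2.82, 5.28 and 6.11 FPKM in knockdown libraries and 3.12, 3.08 and 2.95 FPKM in control libraries, so 2 knockdown libraries were above and 1 below all control libraries. Its difference of 0.45 ± 0.21 (SE) did not pass (limma adjusted p = 0.0862). HIST1H4J and HIST1H4K also moved as copies, with HIST1H4J at 0.976 to 0.979 of HIST1H4K in each library, and neither passed.

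**Figure D3:**
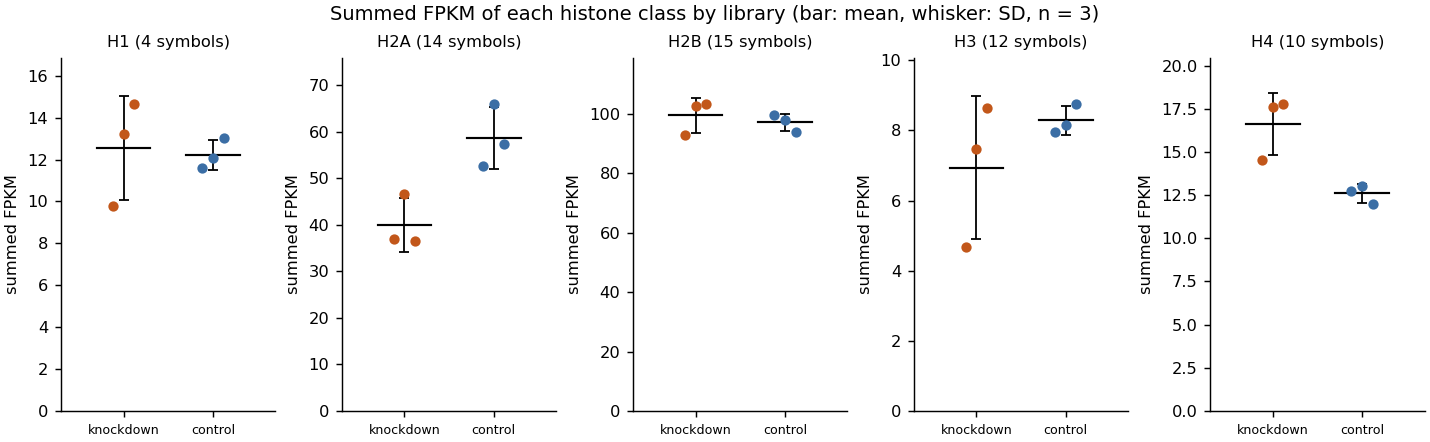
Summed FPKM of the H1, H2A, H2B, H3 and H4 genes in each library, knockdown left of control; points are libraries, bars are means and whiskers are SD (n = 3). The H2A sums are lower (36.5 to 46.7 against 52.8 to 66.0 FPKM) and the H4 sums higher (14.6 to 17.8 against 12 to 13.0 FPKM) in every knockdown library, and the other classes overlap.

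Below the minimum of 0.5 FPKM lay 24 genes, with means between 0.0235 and 0.443 FPKM. In none of them did the groups stand apart, and the highest single value was 1.36 FPKM, of HIST1H4D in 1 knockdown library. Their sums were 3.81, 4.41 and 6.01 FPKM in knockdown libraries and 3.64, 6.05 and 5.45 FPKM in control libraries, which overlapped. This set includes HIST1H4C, HIST1H3A and HIST1H1E, replication-dependent genes of the HIST1 cluster, each listed in at most 2 libraries.

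Many H2A and H2B genes lie head to head and share the short stretch between their starts as a promoter. Among H2A genes at a single locus, 10 pairs lay 239 to 322 bp apart in the files' coordinates. Of these, 9 had opposite strands in the annotation and 1, HIST1H2AH with HIST1H2BK, could not be matched for strand. HIST2H2AA4, which has 2 loci, was left out of the search, so pairs of that gene were not counted. The promoters of 3 pairs are shown because the ratio of the genes on their sides did not overlap between the groups. They were read from RefSeq on GRCh38.p14, on the plus strand, and capitals mark the CCAAT box, the TATA sequence TATAAA and the octamer ATTTGCAT, each on either strand.
HIST1H2AC and HIST1H2BC: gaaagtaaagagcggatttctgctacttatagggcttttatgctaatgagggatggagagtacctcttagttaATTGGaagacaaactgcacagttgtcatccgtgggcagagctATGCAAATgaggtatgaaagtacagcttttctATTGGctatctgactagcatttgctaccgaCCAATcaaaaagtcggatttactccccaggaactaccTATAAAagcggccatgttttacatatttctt
HIST2H2AC and HIST2H2BE: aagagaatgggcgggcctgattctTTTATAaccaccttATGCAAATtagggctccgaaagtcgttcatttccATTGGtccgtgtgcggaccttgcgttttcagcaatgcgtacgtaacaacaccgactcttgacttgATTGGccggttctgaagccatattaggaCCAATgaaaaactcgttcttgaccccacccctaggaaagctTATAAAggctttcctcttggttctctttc
HIST3H2A and HIST3H2BB: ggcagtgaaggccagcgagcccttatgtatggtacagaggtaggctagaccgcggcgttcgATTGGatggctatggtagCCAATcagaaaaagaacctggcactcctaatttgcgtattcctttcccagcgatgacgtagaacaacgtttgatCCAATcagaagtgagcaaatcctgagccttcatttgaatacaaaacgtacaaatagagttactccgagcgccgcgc

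The first is the stretch between HIST1H2BC and HIST1H2AC at chr6:26123927-26124171, the second between HIST2H2BE and HIST2H2AC at chr1:149886683-149886917, and the third between HIST3H2A and HIST3H2BB at chr1:228457874-228458102. Each held 3 CCAAT boxes. TATAAA was found 1 time in the first, 2 times in the second and 0 times in the third, and the octamer ATTTGCAT 1, 1 and 0 times. Matches did not overlap each other.

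Of the 55 genes, 49 had a RefSeq promoter window of 250 bases before to 50 after the start. With both strands searched, CCAAT was in 41 of these windows (83.7%), against 35.7% of 27305 promoters in all. The CCAAT box was present in 4 of 4 H1, 13 of 13 H2A, 13 of 13 H2B and 10 of 10 H3 windows, but in 1 of 9 H4 windows. The octamer, a binding sequence of OCT1 known from H2B promoters, was in 9 of 13 H2A and 9 of 13 H2B windows and in 1.8% of all promoters. Windows of head-to-head genes overlap, so matches in such an H2A and H2B gene are often the same letters. TATAAA was in 30 of the 49 (61.2%), against 12% of all. AACACA, a sequence known from H1 promoters, was in 4 of 4 H1 windows and in 13.9% of all promoters. A match is a description of the letters and not of binding.

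HIST1H2AC and HIST1H2BC, 240 bp apart, moved in opposite directions, with HIST1H2AC lower and HIST1H2BC higher in knockdown. Their log2 ratio, taken as log2(FPKM + 1) of the H2A gene minus that of the H2B gene, was 1.23, 0.72 and 0.57 in knockdown libraries and 2.52, 2.55 and 2.40 in control libraries. The ratio was lower in 3 of 3 knockdown libraries by 1.65, with an exact two-sided permutation p = 0.1, the smallest this design allows. The ratio sets the genes side by side inside each library.

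HIST2H2AC and HIST2H2BE, 292 bp apart, differed the other way, with log2 ratios of -0.62, -0.28 and -0.21 in knockdown libraries and -1.81, -1.22 and -1.60 in control libraries. HIST3H2A and HIST3H2BB, 247 bp apart, had ratios of 2.72, 2.74 and 2.96 in knockdown libraries and 3.50, 4.09 and 4.50 in control libraries, with HIST3H2BB under the minimum of 0.5 FPKM. Both gave p = 0.1 in the same exact permutation test. In HIST1H2AG with HIST1H2BJ (difference 0.30, exact p = 0.6) and HIST1H2AK with HIST1H2BN (0.86, exact p = 0.3) the ratios did not stand apart. All 10 pairs were tested, and their p-values were not adjusted. A ratio that stands apart between the groups always gives p = 0.1 in this exact permutation test. The pairs shown were picked for standing apart, so their p-values add nothing to that. Where a value was at or near 0, the ratio rests on the 1 FPKM added to both genes.

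**Figure D4:**
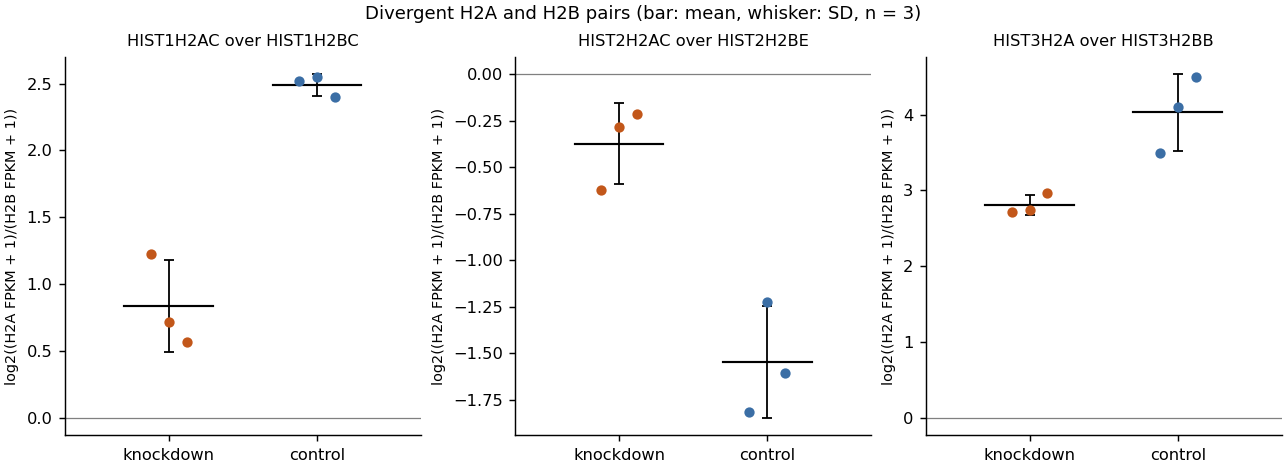
Log2 ratio of the H2A gene over the H2B gene, with 1 FPKM added to each, in each library for 3 head-to-head pairs, knockdown left of control; points are libraries, bars are means and whiskers are SD (n = 3). The HIST1H2AC and HIST3H2A ratios are lower and the HIST2H2AC ratio higher in every knockdown library.

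The authors' deposited table of their own comparison holds 15 of the histone genes among 12275. Of the 15 genes, 0 in the authors' deposited table passed a false discovery rate of 0.05, beside 22.1% of all genes in it, and 2 had an unadjusted p under 0.05. HIST3H2A had a log2 fold change of -1.03 and a false discovery rate of 0.0520 in the authors' deposited table. HIST1H2BC had 1.39 and 0.0881 there, and HIST1H2AC -0.52 and 0.306. The signs for these genes were the same as in the limma test, and the calls were not.

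Genes that make, process, carry or replace these histones were examined next. Of 24 symbols searched for histone gene transcription and 3′ end processing, 23 were listed in the libraries and all 23 were tested. In knockdown 15 were higher and 4 lower, with a median of 0.35, beside 25.6% of all symbols higher, 37.9% lower and a median of -0.09. SLBP, the stem-loop binding protein, stood at 47.8, 54.5 and 48.8 FPKM in knockdown libraries and 23.3, 25.3 and 26.1 FPKM in control libraries. It rose by 0.99 ± 0.07 (SE) (limma adjusted p = 8.94e-06), with every knockdown library above every control library. NPAT, the coactivator of histone gene transcription, stood at 3.64, 3.82 and 4.0 FPKM in knockdown libraries and 2.43, 3.18 and 2.80 FPKM in control libraries and rose by 0.35 ± 0.10 (SE) (limma adjusted p = 0.0146, and 0.0519 without knockdown replicate 3).

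SRRT, which links the cap-binding complex to 3′ end processing, stood at 45.6, 47.3 and 45.0 FPKM in knockdown libraries and 18.7, 19.7 and 17.9 FPKM in control libraries. CSTF2, a cleavage factor shared with polyadenylation, stood at 18.2, 17.3 and 17.7 FPKM in knockdown libraries and 10.1, 8.40 and 9.40 FPKM in control libraries. NCBP1, of the cap-binding complex, stood at 22.5, 22.2 and 21.1 FPKM in knockdown libraries and 12.6, 11.9 and 13.3 FPKM in control libraries. All 3 genes were higher in every knockdown library, by 1.25 ± 0.05 (SE) for SRRT, 0.87 ± 0.07 (SE) for CSTF2 and 0.76 ± 0.06 (SE) for NCBP1, each past limma's adjusted threshold. Those that fell were LSM11, a subunit of the U7 particle (-0.54), HINFP, a transcription factor of H4 genes (-0.34), SYMPK, a scaffold of the cleavage complex (-0.32), and MIF4GD, a partner of SLBP in translation (-0.74).

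Of 19 variant genes, which are made outside S phase too and replace the standard histones, 16 were listed and 12 tested, with 6 higher and 2 lower and a median of 0.18. The share of all symbols called in either direction was 63.5%, with 25.6% higher and 37.9% lower. H2AFZ, the gene of the variant H2A.Z, stood at 649, 673 and 654 FPKM in knockdown libraries and 370, 363 and 315 FPKM in control libraries, a rise of 0.92 ± 0.06 (SE) (limma adjusted p = 8.5e-06). This single variant gene stood above the sum of all 55 HIST genes, which was 159 to 188 FPKM in knockdown libraries and 185 to 197 in control libraries. That sum need not measure the tailless histone mRNAs, since the kit's standard procedure captures poly(A) RNA. H2AFX, the variant marked at DNA breaks, stood at 57.1, 58.0 and 48.9 FPKM in knockdown libraries and 30.1, 27.2 and 21.4 FPKM in control libraries, a rise of 1.04 ± 0.12 (SE) (limma adjusted p = 0.000131). CENPA, the H3 variant of centromeres, stood at 26.4, 23.4 and 23.6 FPKM in knockdown libraries and 16.1, 14.7 and 13.7 FPKM in control libraries. H2AFV, a close relative of H2AFZ, stood at 99.8, 104 and 110.6 FPKM in knockdown libraries and 64.8, 69.8 and 63.2 FPKM in control libraries. Both were higher in every knockdown library, CENPA by 0.69 ± 0.08 (SE) and H2AFV by 0.66 ± 0.06 (SE), past limma's adjusted threshold. H1F0, a linker histone of resting cells, fell by 0.37 and H2AFY2, of the macroH2A kind, by 0.55.

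Of 23 chaperones and assembly factors, which carry histones to DNA, 16 were higher and 2 lower, with a median of 0.38. For all symbols tested the shares were 25.6% higher and 37.9% lower. IPO4, an importer of H3 and H4, stood at 49.6, 47.6 and 46.2 FPKM in knockdown libraries and 25.1, 23.7 and 21.4 FPKM in control libraries. CHAF1A, of the assembly factor at replication forks, stood at 16.2, 15.9 and 15.3 FPKM in knockdown libraries and 7.89, 8.77 and 7.82 FPKM in control libraries. NASP, a carrier of histone reserves, stood at 49.6, 53.9 and 52.5 FPKM in knockdown libraries and 31.2, 28.5 and 30.7 FPKM in control libraries. None of these groups overlapped, and the rises were 1.00 ± 0.07 (SE) for IPO4, 0.88 ± 0.07 (SE) for CHAF1A and 0.77 ± 0.06 (SE) for NASP, each past limma's adjusted threshold. ASF1A, which hands H3 and H4 to assembly factors, stood at 20.7, 20.4 and 22.9 FPKM in knockdown libraries and 12.2, 13.2 and 11.8 FPKM in control libraries, also apart, a rise of 0.74 ± 0.07 (SE). Members that act in deposition of the H3 variant outside S phase changed in both directions, with DAXX (-0.32) and UBN2 (-0.43) lower and HIRA (0.28), UBN1 (0.33) and ATRX (0.53) higher, all past limma's adjusted threshold.

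Of 30 genes for DNA synthesis in S phase, 26 were higher and 1 lower, with a median of 0.69, beside 25.6% of all symbols higher and 37.9% lower. CCNE2, a cyclin of S-phase entry, stood at 21.7, 22.1 and 22.4 FPKM in knockdown libraries and 7.10, 7.64 and 7.95 FPKM in control libraries, a rise of 1.43 ± 0.06 (SE) (limma adjusted p = 1.14e-06). It was higher in every knockdown library, as were GINS4 and MCM4, parts of the replicative helicase, and CDC6, which helps load it. GINS4 stood at 14.4, 15.1 and 15.1 FPKM in knockdown libraries and 6.30, 4.14 and 4.44 FPKM in control libraries. CDC6 stood at 28.96, 30.1 and 30.1 FPKM in knockdown libraries and 12.6, 12.5 and 13.1 FPKM in control libraries. MCM4 stood at 48.2, 48.7 and 47.9 FPKM in knockdown libraries and 24.0, 23.0 and 20.1 FPKM in control libraries. They rose by 1.43 ± 0.13 (SE) for GINS4, 1.16 ± 0.05 (SE) for CDC6 and 1.08 ± 0.07 (SE) for MCM4, past limma's adjusted threshold. CDT1, which licenses origins, was the one that fell, by 0.59. The S-phase list and the chaperone list share MCM2.

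**Figure D5:**
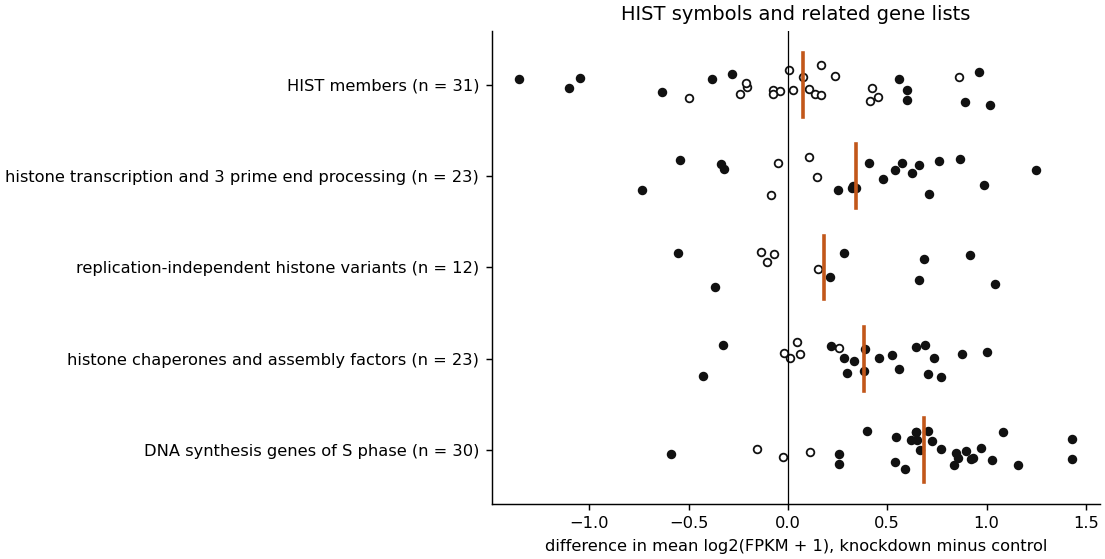
Difference between knockdown and control on the log2(FPKM + 1) scale for each tested gene of the HIST clusters and of 4 related lists; filled points passed limma's adjusted threshold and the orange line is each list's median. The medians are 0.08 for the HIST genes, 0.35 for transcription and 3′ end processing, 0.18 for variants, 0.38 for chaperones and 0.69 for S-phase DNA synthesis.

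Among the 6 HIST genes known to give polyadenylated transcripts in differentiated cells, 1 was called higher and 2 lower, with a median of -0.02. Over all symbols tested, 25.6% were called higher and 37.9% lower. In these libraries SLBP and most of the S-phase genes were higher in knockdown, while the HIST genes were called in both directions. The kit's standard procedure captures poly(A) RNA, so the HIST values need not measure the tailless mRNAs of S phase. No test compared the lists with each other.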

How the data were processed

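RNA of 6 A549 libraries was sequenced. The submitters' processing notes name hg19, Bowtie, TopHat2 2.0.12, Cuffdiff and Cufflinks 2.0.2 without saying what each did. Annotation, strand setting and read length were not given in the sources used here. Per the file headers, FPKM values per gene came from the authors for each library. Per the file headers, a table of the authors' own comparison gives log2 fold changes with p-values and false discovery rates. The files hold no counts, so fragment numbers are rough estimates.

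FPKM was summed over the rows of a symbol (331 of 17789 have several loci), and a symbol not listed in a library was set to 0, which can hide a failed estimate. Symbols with a mean of at least 0.5 FPKM were tested with limma 3.58.1 in R 4.3.3 on log2(FPKM + 1) (eBayes with a trend, two-sided, no covariate), with Benjamini-Hochberg adjustment over 13340 symbols. The pseudocount of 1 understates the change of low genes. Class sums got no test. FOXD3 and the ratios of the H2A and H2B pairs got the exact permutation test. In simulated data over 13340 genes, 100 genes were changed by 0.5 and 100 by 1 on the log2 scale. Limma recovered 65% of the first and 92% of the second, with 4 false calls. Recovery was not split by gene level, so it does not speak for the histone genes, which are mostly low. Far fewer genes were changed in the simulation than the 63.5% of symbols called here. Its recovery and false calls therefore need not hold for the real comparison.

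The members and the gene lists were chosen with earlier results of these data known. Named by rule were histone genes with a mean of 5 FPKM or more, up to 6 called ones in each direction, up to 4 called genes with the largest change in each related list (mean of 5 FPKM or more in a group), SLBP, NPAT and FOXD3. Other genes, among them all related genes that fell, HIRA, UBN1, ATRX, HIST1H4H, HIST1H2AG, HIST1H4J and HIST1H4K, were named after their values were seen. Alternatives changed the pseudocount (0.1, 0.5), the filter (none, 5 FPKM, listed in all 6), the scaling, the trend, the row kept per symbol and the libraries used. Coordinates are hg19 as in the authors' files, made 1-based. Promoter sequences are from RefSeq (GRCh38.p14) and stem-loops from GENCODE 29 transcripts, and neither was used for coordinates of values.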

Additional observations from a re-analysis of the deposited data

How the results depend on the processing

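Of the histone genes, HIST1H2AC, HIST3H2A and HIST1H2BC kept their direction and their call in all 17 settings, and HIST1H2BJ in all 16, HIST1H2BN and HIST3H3 in all 15 in which they could be tested. HIST1H2BN reached the minimum level only through the control group, so a difference was built into its selection. HIST3H3 rests on at most about 2.98 fragments in a knockdown library. The settings share the same libraries, so a kept call adds no independent evidence. HIST2H2AC was called in 14 settings and HIST1H3G in 13, each of those with a test, but the minimum level left HIST2H2AC untested without knockdown replicate 2 and HIST1H3G untested without knockdown replicate 1 or 3, among others. HIST1H3E kept its call in 11 of 16, HIST2H4A and HIST2H4B in 9 of 16 and HIST2H2BE in 8 of 16, and HIST2H2BE turned to 0.00049 under quantile normalization. The number called higher, 6, became 1 with a filter at 5 FPKM and 10 under quantile normalization, and lay between 3 and 6 when a library was left out (3 without knockdown replicate 2 or 3). The number called lower, 6, became 2 with the filter at 5 FPKM and lay between 4 and 5 when a library was left out. With that filter the lower calls became 2 for histone transcription and 3′ end processing and 1 for variants. The lower calls of the chaperones became 1 under quantile normalization, and those of the S-phase list lay between 1 and 2, with 2 without control replicate 2. On the log2 scale the H2B sum (0.04) became 0.12 under median scaling, the H3 sum (-0.26) became 0.26 and the H4 sum (0.40) became 0.92 under quantile normalization. When a library was left out the sums lay between -0.09 and 0.19 for H1, -0.68 and -0.46 for H2A, 0.01 and 0.08 for H2B, -0.45 and -0.04 for H3 and 0.35 and 0.49 for H4. Leaving out HIST2H4B, chosen after seeing the data, gave 0.31 for H4. The median of all symbols was -0.09, and -0.01 under median scaling and 0.03 under quantile normalization. The cause of these moves was not tested, except that the filter at 5 FPKM leaves 7 histone genes to test. No paired analysis was possible because the labels number and pair no libraries, and the replicate numbers used here only follow accession order. Depth limits every statement on histone genes under about 1 FPKM, and FPKM alone gives no counting interval.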
